A study of Mus musculus with 2 samples.

Results

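Immediate early genes of the AP-1, EGR and NR4A families were followed in the pigmented mouse melanoma line B16 after treatment with LY500307 and after a control treatment. The genes are Fos, Fosb and Fosl1 of the FOS family, Jun, Junb and Jund of the JUN family, Egr1 of the EGR family, and Nr4a1, Nr4a2 and Nr4a3 of the NR4A family. They were chosen by name, and all 10 were found among the 18220 genes of the table. LY500307 (erteberel) is a drug that activates estrogen receptor beta in preference to the alpha receptor. The LY500307 group was 1 library of LY500307-treated cells and the control group 1 library of control-treated cells, both of total RNA depleted of ribosomal RNA. Genotype and further treatment are not distinguished in the labels, and dose, time, the content of the control treatment and the number of cultures behind a library are not stated in the sources at hand. With 1 library per group no difference has a replicate check, no test between treatments was possible, and all values describe these 2 libraries.

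Immediate early genes are transcribed within minutes of a stimulus from factors already present in the cell, and many of their transcripts decay quickly. FOS and JUN proteins pair through leucine zippers to form AP-1, which binds DNA at AP-1 sites. FOS proteins need a JUN partner, whereas JUN proteins can also pair with each other. EGR proteins bind GC-rich sites through zinc fingers. NR4A proteins are nuclear receptors that act without a known hormone, so that their activity depends largely on how much of them is made. SRF with its ternary complex cofactors, and CREB at cAMP response elements, are the best known inducers of these genes. In melanocyte lineage cells Nr4a genes are known to respond to melanocortin signalling through cAMP.

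The LY500307 library held 14698853 recovered reads and the control library 16704950. Values are counts-per-million (CPM), on a scale where 1 read was worth 0.0676 CPM in the LY500307 library and 0.0603 CPM in the control library. Folds are given as log2((LY500307 + 1)/(control + 1)) of CPM, which understates low genes, and as the plain ratio of scaled reads with an exact 95% Clopper-Pearson interval, which covers counting error only. A gene counted as measured with a mean of at least 1 CPM. Of 12243 measured genes the median log2 fold was -0.01, and the central 90% ran from -0.36 to 0.43. The identity of the cells fitted the label, with all 7 melanocyte lineage markers measured at a summed 25082 CPM in the LY500307 library and 26245 CPM in the control library. Of 6 leukocyte markers only Cd68 was listed, at 1.35 CPM in the LY500307 library and 1.51 CPM in the control library, and the other 5, such as Ptprc, were not analysed here. The 3 fibroblast markers summed to 6.89 CPM in the LY500307 library and 7.41 CPM in the control library, and those of endothelium and keratinocytes were not analysed here.

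The immediate early genes did not differ in 1 direction. Fos and Nr4a2 were higher in the LY500307 library, with log2 folds of 0.60 and 0.61, and Nr4a3 was lower, with -0.61. Without the pseudocount the log2 ratios were 0.84 for Fos, 0.73 for Nr4a2 and -0.64 for Nr4a3. Jun and Jund were higher by less, Nr4a1 was lower, and Junb was level. In RNA of whole cultures, a change in the number of cells that make a transcript and a change in its amount per cell cannot be told apart. Of the 10 genes 8 were measured, and Fosb and Fosl1 were below the minimum. By a rule of 1.5-fold, which is 0.58 on the log2 scale, 2 measured members were higher and 1 was lower. The same rule called 2.25% of all measured genes higher and 1.39% lower. No member reached 2-fold, as 0.253% of measured genes did upward and 0.123% downward. Counting intervals of the plain ratio lay above 1 for Fos, Jun, Jund and Nr4a2, which was 4 of the 8, and below 1 for Nr4a1 and Nr4a3, which was 2 of the 8. Over all measured genes these shares were 17.2% and 19.2%. The median log2 fold over the 8 measured members was 0.35.

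**Figure D1:**
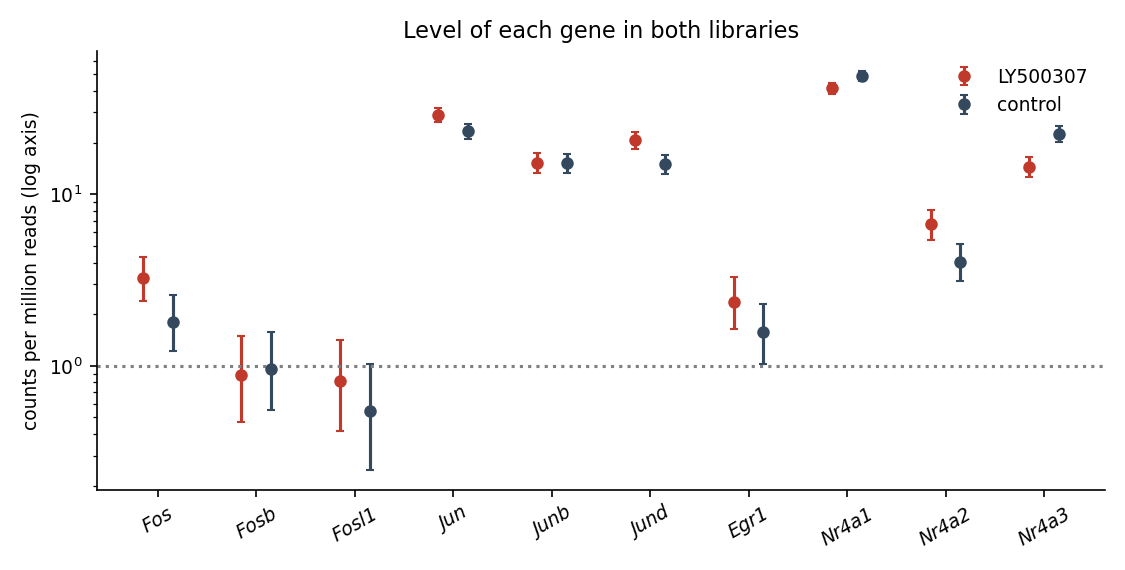
Level of each of the 10 genes in CPM (log axis), with the LY500307 library (red) left of the control library (dark). Bars are exact 95% Poisson counting intervals and the dotted line is the minimum of 1 CPM. Nr4a1 stands highest in both libraries, at 41.4 CPM in the LY500307 library and 49.0 CPM in the control library.

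Between genes, levels were compared per kb of the longest coding transcript. Nr4a1 was highest, with 16.2 CPM per kb in the LY500307 library and 19.2 CPM per kb in the control library. The JUN genes followed. In the LY500307 library Jund stood at 12.4 CPM per kb, Jun at 9.11 and Junb at 8.40, and in the control library Jund stood at 8.997, Junb at 8.40 and Jun at 7.31. Jund stood above Jun in both libraries, with separate counting intervals in the LY500307 library. In the control library the intervals of neighbouring JUN genes, and of Jund and Jun, overlapped. Overlap of intervals does not show that levels are equal. The LY500307 to control ratio of Jund over that of Jun was 1.11 (0.886 to 1.38), an interval that includes 1. Nr4a3 came next, at 2.52 CPM per kb in the LY500307 library and 3.93 in the control library, then Nr4a2, at 1.87 in the LY500307 library and 1.13 in the control library, and Fos, at 1.54 in the LY500307 library and 0.858 in the control library. Nr4a3 and Nr4a2 were apart in the control library, while their intervals overlapped in the LY500307 library. Egr1, Fosl1 and Fosb were lowest, between 0.232 and 0.527 CPM per kb in the LY500307 library and between 0.255 and 0.349 in the control library, in the same order and with overlapping neighbours in each. Their levels rest on few reads, and the order among them was not tested. By the length of all exons in place of the longest coding transcript, Nr4a1 was first in the control library and Jund first in the LY500307 library.

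Among the FOS genes, Fos, whose protein is the founding FOS partner of JUN, had 48 reads (3.24 CPM) in the LY500307 library and 30 reads (1.81 CPM) in the control library. The ratio was 1.79 (interval 1.11 to 2.93). Its log2 fold was above that of 90.8% of the 500 measured genes closest to it in mean level. Fosb, which also yields a truncated form that lasts longer than the full protein, had 13 reads (0.879 CPM) in the LY500307 library and 16 reads (0.964 CPM) in the control library. Its ratio was 0.911 (0.403 to 2.02). Fosl1, which encodes FRA-1, a FOS protein prominent in invasive tumours, had 12 reads (0.811 CPM) in the LY500307 library and 9 reads (0.542 CPM) in the control library, with a ratio of 1.49 (0.578 to 4.02). For Fosb and Fosl1 the intervals are wide and include 1, so on these few reads no difference was resolved. The Fosl1 transcript overlaps Ccdc85b on the other strand, which had 281 reads in the LY500307 library and 326 in the control library. Whether the authors counted by strand is not stated in the sources at hand, so reads of such pairs cannot be told apart.

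Together the 3 FOS genes had 73 reads in the LY500307 library and 55 in the control library, a ratio of 1.49 (1.03 to 2.15). Fos made up 69.7% of the family's level per kb in the LY500307 library and 61.1% in the control library. Fosl2, which encodes FRA-2 and is the remaining FOS gene, had more reads than any of them, 141 in the LY500307 library and 175 in the control library, with a ratio of 0.903 (0.718 to 1.13). With Fosl2 counted in, the sums were 214 reads in the LY500307 library and 230 in the control library, and the ratio was 1.04 (0.862 to 1.26). The higher FOS sum in the LY500307 library was therefore not seen once Fosl2, a choice made after its values were known, was included.

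All 3 JUN genes were well above the minimum. Jund, which encodes a JUN protein made steadily in many resting cells, had 306 reads (20.7 CPM) in the LY500307 library and 249 reads (15.01 CPM) in the control library. The ratio was 1.38 (1.16 to 1.64), and its log2 fold of 0.44 was above that of 96.2% of the 500 genes closest in level. Jun, which encodes the strongest activator of the family and a substrate of JNK, had 430 reads (29.1 CPM) in the LY500307 library and 387 reads (23.3 CPM) in the control library, with a ratio of 1.25 (1.08 to 1.43). Its log2 fold of 0.31 was above that of 93.6% of its neighbours in level. Junb, which encodes a weaker activator that can oppose JUN, was at 15.2 CPM in both libraries, on 225 reads in the LY500307 library and 252 in the control library. Its ratio was 1.001 (0.833 to 1.20).

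Within the JUN family the Jund ratio exceeded that of Junb by a factor of 1.38 (1.07 to 1.77), while the factors of Jun over Junb, 1.24 (0.986 to 1.57), and of Jund over Jun, 1.11 (0.886 to 1.38), had intervals that include 1. In the LY500307 library Jund took 41.4% of the family's level per kb, Jun 30.5% and Junb 28.1%. In the control library Jund took 36.4%, Junb 34.0% and Jun 29.6%. Jun and Jund have a single exon in the annotation. The Jund transcript is 67.1% G and C, against a median of 49.9% over measured genes, and the median log2 fold of measured genes in its bin of GC content was 0.03. Antisense or overlapping genes touch all 3. Junos, which overlaps Jun, had 6 reads in the LY500307 library and 4 in the control library. Prdx2, which overlaps an exon of Junb, had 3567 reads (241.0 CPM) in the LY500307 library and 3734 reads (225.0 CPM) in the control library. Gm11175, antisense to Jund, was not analysed here. The part of these overlaps in the values of the JUN genes was not tested.

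Egr1 encodes a zinc finger factor induced through ERK and SRF. It had 35 reads (2.37 CPM) in the LY500307 library and 26 reads (1.57 CPM) in the control library. The ratio was 1.51 with an interval of 0.883 to 2.61, which includes 1, so on these few reads no difference was resolved. Its log2 fold of 0.39 was above that of 80.4% of the 500 genes closest in level. Without the pseudocount Egr1 passes 1.5-fold as well, which makes 3 members higher, where 4.13% of measured genes were, and 1 lower, where 2.84% were.

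The NR4A genes differed from each other in direction. Nr4a1, which encodes NUR77, had 612 reads (41.4 CPM) in the LY500307 library and 813 reads (49.0 CPM) in the control library. Its ratio was 0.844 (0.759 to 0.938), and its log2 fold of -0.24 was below that of 91.0% of the 500 genes closest in level. Nr4a3, which encodes NOR1, had 213 reads (14.4 CPM) in the LY500307 library and 373 reads (22.5 CPM) in the control library. Its ratio was 0.640 (0.538 to 0.760), and 99.2% of the genes closest in level had a higher log2 fold, which was the most extreme rank among the 8 measured members. Nr4a2, which encodes NURR1, known for its role in dopamine neurons, went the other way. It had 99 reads (6.69 CPM) in the LY500307 library and 67 reads (4.04 CPM) in the control library, a ratio of 1.66 (1.20 to 2.29), and its log2 fold was above that of 94.4% of its neighbours.

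In each of the 3 pairs of NR4A genes the ratios differed beyond counting error. The ratio of Nr4a2 exceeded that of Nr4a3 by a factor of 2.58 (1.79 to 3.74) and that of Nr4a1 by 1.96 (1.40 to 2.77). The ratio of Nr4a1 exceeded that of Nr4a3 by 1.32 (1.08 to 1.62). Of the 9 pairs within families these and Jund over Junb were the 4 with an interval above 1, and none of the FOS pairs was among them. Nr4a2 took 9.11% of the family's level per kb in the LY500307 library and 4.67% in the control library, and Nr4a3 took 12.2% in the LY500307 library and 16.2% in the control library. Nr4a1 held 78.7% in the LY500307 library and 79.1% in the control library, so that the family's level per kb rests mostly on Nr4a1. The sum of reads is not divided by length and draws on Nr4a3 as well. Nr4a3 was at 14.4 CPM in the LY500307 library and 22.5 CPM in the control library. Nr4a1 was at 41.4 CPM in the LY500307 library and 49.0 CPM in the control library.

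**Figure D2:**
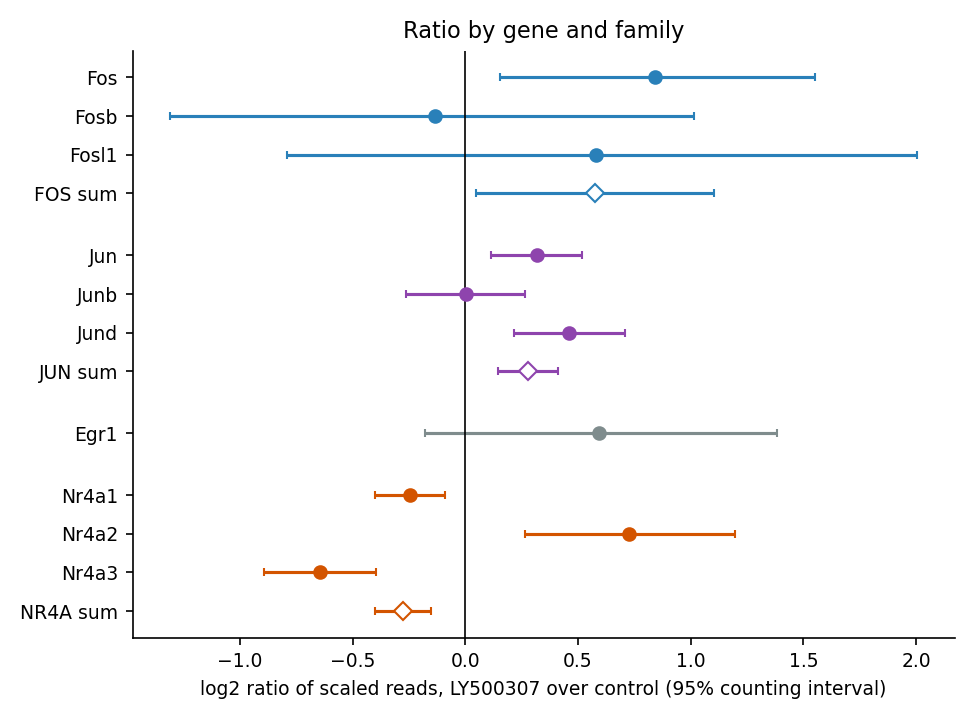
Ratio of scaled reads, LY500307 over control, on the log2 scale for each gene (filled circles) and for the summed reads of a family (open diamonds), with 95% counting intervals. Nr4a2 lies right of 0 and Nr4a1 and Nr4a3 lie left of it, while the intervals of Fosb, Fosl1, Junb and Egr1 include 0.

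The promoters of the NR4A genes are shown because these genes differ in direction and each carries several copies of the same short element, and that of Fos because it is the FOS gene with the most reads of the 3. The sequences are the 250 bases before the annotated start, from RefSeq on GRCm38.p6, written 5′ to 3′ on the strand of the gene, with capitals where TGACG, the core of the cAMP response element bound by CREB and its relatives, matches on either strand. Nr4a1 is at chr15:101266596-101266845 on the plus strand, Nr4a2 at chr2:57124004-57124253 on the minus strand, Nr4a3 at chr4:48045055-48045304 on the plus strand and Fos at chr12:85473640-85473889 on the plus strand.
Nr4a1: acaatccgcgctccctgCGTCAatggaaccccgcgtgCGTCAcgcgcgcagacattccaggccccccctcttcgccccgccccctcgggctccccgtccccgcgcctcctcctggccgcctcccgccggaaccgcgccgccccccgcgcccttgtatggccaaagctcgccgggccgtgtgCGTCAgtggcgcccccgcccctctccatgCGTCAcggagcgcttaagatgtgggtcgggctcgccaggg
Nr4a2: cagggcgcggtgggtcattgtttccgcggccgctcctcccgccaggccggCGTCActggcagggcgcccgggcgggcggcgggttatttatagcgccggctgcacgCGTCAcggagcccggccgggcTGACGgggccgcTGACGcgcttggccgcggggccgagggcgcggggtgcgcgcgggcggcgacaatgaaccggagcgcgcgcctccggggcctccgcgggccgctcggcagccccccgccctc
Nr4a3: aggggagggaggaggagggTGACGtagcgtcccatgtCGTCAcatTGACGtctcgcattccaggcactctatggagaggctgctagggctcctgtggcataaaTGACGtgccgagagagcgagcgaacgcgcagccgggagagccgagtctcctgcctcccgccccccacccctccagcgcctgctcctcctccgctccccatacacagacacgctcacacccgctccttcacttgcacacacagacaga
Fos: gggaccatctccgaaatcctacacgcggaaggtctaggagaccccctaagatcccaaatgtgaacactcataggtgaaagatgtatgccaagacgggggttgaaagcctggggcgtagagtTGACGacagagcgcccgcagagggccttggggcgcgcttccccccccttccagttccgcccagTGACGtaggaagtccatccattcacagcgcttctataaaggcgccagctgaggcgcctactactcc

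Each NR4A promoter held 4 matches to TGACG and the Fos promoter held 2. At least 4 matches were found in 0.138% of 32536 promoter windows of the same length, and at least 2 in 3.92%. Among the 9160 windows with at least 60% G and C the shares were 0.371% and 7.54%. The NR4A windows held 74.4% G and C for Nr4a1, 80% for Nr4a2 and 63.6% for Nr4a3. Fosb and Junb held 1 match each, and Jun and Jund none. No window of these 8 genes held the full palindrome TGACGTCA, which counts as 2 matches to its core and was found in 1.56% of windows. Jun held TGACNTCA once, a form of which is known as an AP-1 site through which JUN acts on its own gene, and 7.43% of windows held it. The AP-1 site TGANTCA was in none of the 8 and in 6.73% of windows, and the CArG box bound by SRF was in none and in 1.48%. Bases farther than 250 before the start were not searched, so a site absent from a window may lie outside it. The EGR site GCGNGGGCG stood in Fosb, Nr4a1 and Nr4a2 and in 4.74% of windows, and TATAAA in Fos and Nr4a2 and in 12.3%. All motifs were searched on both strands. A match is a description of letters and not a site of binding, and the motifs were chosen with the values of the genes known. Sequences were matched for 8 of the 10 genes, Fosl1 and Egr1 being the others.

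**Figure D3:**
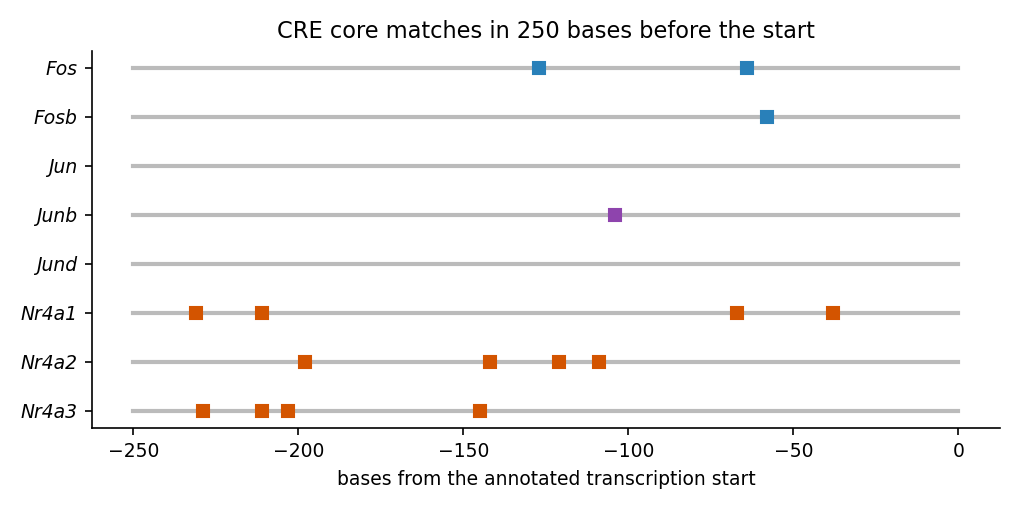
Positions of matches to the core of the cAMP response element (squares) in the 250 bases before the annotated start of transcription, in bases from that start, for the 8 genes with a sequence. Each NR4A gene has 4 matches, Fos has 2, Fosb and Junb have 1 each, and Jun and Jund have none.

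Summed over families, the JUN genes had 961 reads (64.9 CPM) in the LY500307 library and 888 reads (53.5 CPM) in the control library, a ratio of 1.21 (1.11 to 1.33). The NR4A genes had 924 reads (62.4 CPM) in the LY500307 library and 1253 reads (75.5 CPM) in the control library, a ratio of 0.827 (0.759 to 0.901). The families thus lay on opposite sides of 1. The LY500307 to control ratio of each family was set against that of NR4A by the exact conditional odds ratio of the reads. The scaling of the libraries cancels in it, and it does not compare levels. The factor over NR4A was 1.47 for JUN (1.29 to 1.67), 1.799 for FOS (1.24 to 2.63) and 1.82 for Egr1 (1.06 to 3.18). For FOS with Fosl2 it was 1.26 (1.02 to 1.56). The other 3 of the 6 pairs of families had intervals that include 1, with 1.23 for FOS over JUN (0.842 to 1.795), 1.24 for Egr1 over JUN (0.721 to 2.17) and 0.986 for FOS over Egr1 (0.506 to 1.91). With Fosl2, FOS over JUN was 0.860 (0.695 to 1.06). These intervals compare the reads of 2 libraries and carry no variation between cultures.

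**Figure D4:**
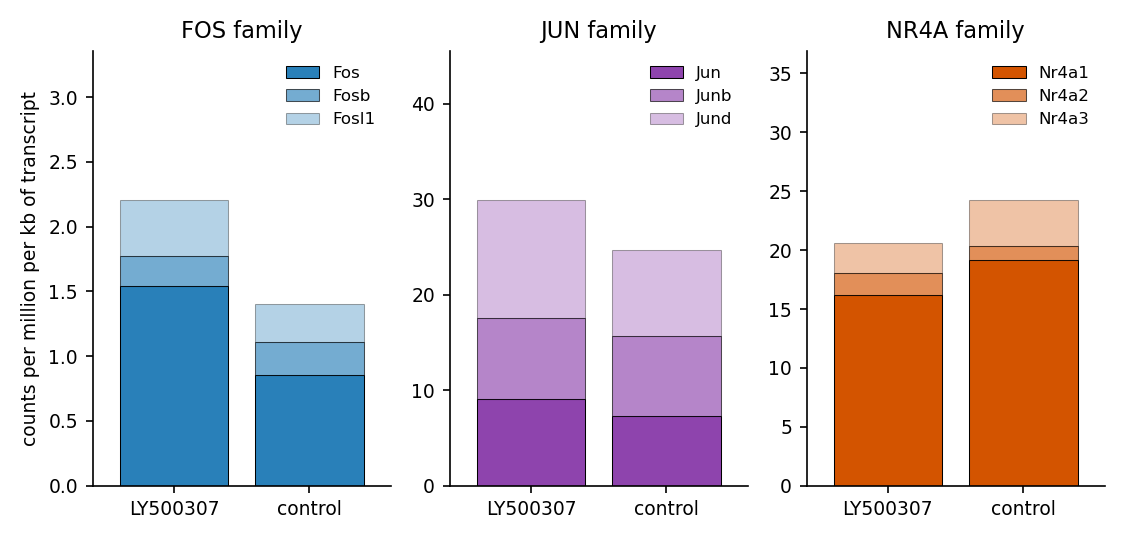
Level of the FOS, JUN and NR4A genes in CPM per kb of transcript, stacked by gene, with the LY500307 library left of the control library and a separate axis for each family. The FOS stack reaches 2.21 in the LY500307 library and 1.40 in the control library, the JUN stack 29.9 in the LY500307 library and 24.7 in the control library, and the NR4A stack 20.6 in the LY500307 library and 24.3 in the control library.

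Per kb of transcript the JUN genes made up 56.2% of the summed level of the 10 genes in the LY500307 library and 48.7% in the control library, and the NR4A genes 38.7% in the LY500307 library and 47.8% in the control library. The FOS genes made up 4.14% in the LY500307 library and 2.77% in the control library, and Egr1 0.991% in the LY500307 library and 0.689% in the control library. The summed level per kb of the JUN genes was 13.6 times that of the 3 FOS genes in the LY500307 library and 17.6 times in the control library. The sum over all 10 genes was 53.2 CPM per kb in the LY500307 library and 50.7 in the control library.

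**Figure D5:**
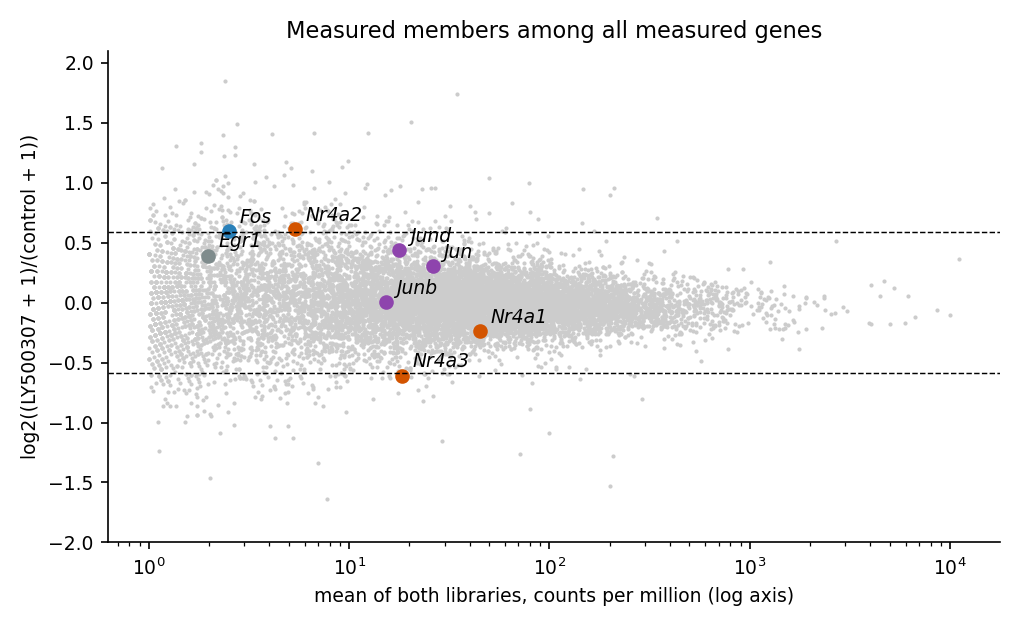
Log2 fold against mean level (log axis) for all 12243 measured genes (grey) and the 8 measured members (coloured by family), with dashed lines at 1.5-fold. Fos, Nr4a2 and Nr4a3 lie just past the lines, and the grey cloud is wider at low levels.

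Other genes of these pathways were taken from 10 lists, none of which contains the 10 members. The bZIP genes whose proteins can pair with FOS or JUN, or act at related sites, had 10 of 13 measured, with 0 past 1.5-fold and a median log2 fold of -0.14. Jdp2, a repressor that pairs with JUN proteins, was at 62.2 CPM in the LY500307 library and 46.0 CPM in the control library (log2 fold 0.43). Batf3, a JUN partner known from dendritic cells, was at 1.28 CPM (19 reads) in the LY500307 library and 2.23 CPM (37 reads) in the control library, a log2 fold of -0.50. The small MAF gene Maff was at 3.38 CPM in the LY500307 library and 5.002 CPM in the control library (-0.45). The EGR family and its NAB corepressors had 2 of 5 measured and 0 past 1.5-fold. Nab2, itself an EGR target that dampens EGR1, was at 6.69 CPM in the LY500307 library and 9.10 CPM in the control library, a ratio of 0.735 (0.565 to 0.953), and Nab1 was at 82.9 CPM in the LY500307 library and 79.1 CPM in the control library. Egr2 had 0 reads in the LY500307 library and 3 in the control library, and Egr3 and Egr4 were not analysed here.

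Of the upstream factors below, Crem alone was past 1.5-fold. SRF and its cofactors had 6 of 6 measured, 0 past 1.5-fold and a median of 0.18. The ternary complex factor gene Elk3 had a log2 fold of 0.37 and Elk4 of 0.23, and Mrtfa, a coactivator of SRF that responds to actin, of 0.40. CREB and its coactivators had 8 of 8 measured, 1 past 1.5-fold upward and a median of -0.04. That gene was Crem, which yields activators and, from an inner promoter, the early repressor ICER. It was at 12.1 CPM (179 reads) in the LY500307 library and 7.47 CPM (124 reads) in the control library, a ratio of 1.62 (1.28 to 2.05). Atf1 was at -0.27 and Creb1 at -0.10. MEF2 and class IIa histone deacetylases, which are known to control Nr4a1 in T cells, had 6 of 8 measured, 0 past 1.5-fold and a median of -0.05, with Hdac4 at -0.25, Mef2c at -0.24 and Hdac7 at -0.10. The RXR genes, partners of NR4A1 and NR4A2, had 2 of 3 measured and 0 past 1.5-fold, with Rxrb at 0.14 and Rxra at 0.12. MAP kinases and the kinases around them had 15 of 16 measured, 0 past 1.5-fold and a median of -0.05. Map2k5, the kinase upstream of ERK5, was at -0.30, Mapk9 at -0.13 and Rps6ka3 at -0.10.

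The remaining immediate early genes had 32 of 35 measured, with 2 past 1.5-fold upward, 0 downward and a median of 0.13. These were Btg2, an antiproliferative gene, with 46 reads in the LY500307 library and 18 in the control library (log2 fold 0.98), and the kinase gene Plk2 (0.96), both also known as targets of p53. Sgk1, a kinase gene induced by serum and glucocorticoids, was at 0.54. Counting intervals lay above 1 for 8 of the 32 and below 1 for 6. Proteins that bind AU-rich elements, through which many early transcripts decay, had 6 of 6 measured, 0 past 1.5-fold and a median of -0.13. Tia1 was at 74.2 CPM in the LY500307 library and 107.9 CPM in the control library (-0.53), Hnrnpd at -0.34 and Auh at 0.24. Genes known as AP-1 targets had 7 of 14 measured, 0 past 1.5-fold and a median of 0.23. The cyclin gene Ccnd1 was at 0.43, the heme oxygenase gene Hmox1 at 0.40 and the protease inhibitor gene Timp1 at 0.37, and counting intervals lay above 1 for 4 of the 7 and below 1 for 1. The targets are shared with many other factors, and their relation to the levels of the FOS and JUN genes was not tested. In the other lists, counting intervals lay above 1 for 1 and below 1 for 5 of the 10 bZIP genes. These counts were 0 and 1 of 2 for EGR and NAB genes and 3 and 1 of 6 for SRF. They were 1 and 1 of 8 for CREB, 0 and 2 of 6 for MEF2 and 2 and 0 of 2 for RXR. They were 0 and 4 of 15 for MAP kinases and 0 and 4 of 6 for proteins that bind AU-rich elements. Over all measured genes the shares were 17.2% and 19.2%.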

How the data were processed

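Per the labels' protocols, ribosomal RNA was removed from Trizol-extracted total RNA before stranded library preparation. The submitters' processing notes name CASAVA 1.8, Bowtie2 and the mouse build mm9. Counting tool, annotation and scaling are not stated in the sources at hand. Each deposited value is a signal of 1 gene, not divided by gene length. The deposited values of a library lie on a constant step, and read counts recovered by dividing by it were whole, to within 1% of a read, for each value above 0. The deposited scaling makes a LY500307 read worth 1.12 control reads, and the TMM scaling of edgeR 4.0.16, computed from the recovered reads, gives the same factor to all printed digits. CPM are deposited values over the mean of the 2 column totals.

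Symbols were found for 18177 of 18224 identifiers. GENCODE M21, on another build than the files, gave lengths, GC content and overlapping genes, so only the positions of RefSeq promoters are given. A blastn 2.17.0 search for near-identical transcripts of other genes (95% identity, 100 bases or more, 50% or more of the shorter one) found Fosl1 and Jund only, whose matches are the overlapping genes named above. Intervals are exact Clopper-Pearson intervals for ratios and exact Poisson intervals for levels, and PCR copies without molecular identifiers are counted as if independent.

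The members and lists, and the rule of 1.5-fold, were chosen with earlier results of these data known. All 10 members, Fosl2, the EGR and NAB genes and up to 3 genes with the largest absolute log2 fold of each list were named. Alternatives were other pseudocounts, minimums, scalings and thresholds, and the median over a family in place of its sum. Added after the data were seen were the plain ratio, centring within 20 bins of GC content, the length of all exons, Fosl2 among the FOS genes and the comparison of pairs within a family. The calculations were tested on simulated counts. The work was done in Python 3.11.15 (scipy 1.17.1, numpy 2.4.6) and R 4.3.3.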

Additional observations from a re-analysis of the deposited data

How the results depend on the processing

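Of the recomputed values 167 stayed within a tolerance. It was set by counting intervals, as 1.5 times for counts of members, and as a fixed width for the median of all measured genes. None changed the sign of a log2 fold past 1.5-fold. The 28 values with TMM scaling could hardly differ, since the deposited scaling is the same. Nor can a pseudocount change the sign of a gene's fold. The tolerance is wide for low genes and for families with few reads, so the count of 167 does not show that results are stable. The FOS minus JUN difference of log2 ratios, 0.29, became -0.07 by medians of members and -0.22 with Fosl2. Both values are among the 167 despite the change of sign, and so is the FOS sum with Fosl2 given below. The 5 values that moved are counts of members past 1.5-fold, 2 higher and 1 lower. With a pseudocount of 5 both counts were 0, and with a threshold of 2-fold both were 0. With a mean of at least 5 CPM the count of higher members was 1, Nr4a2, since Fos lies below that minimum. The median log2 fold of the members, 0.35, was 0.15 with that minimum and 0.22 with a pseudocount of 5. Scaling each library to its own total moved the log2 ratios of reads by 0.02. Without the pseudocount 3 members were higher and 1 lower. With Fosl2 the log2 ratio of the FOS sum was 0.06 in place of 0.57, with an interval of the ratio that includes 1. Leaving out a library was not possible, and no paired analysis was possible because each group is 1 library. With the length of all exons in place of the longest coding transcript, Jund stood above Nr4a1 in the LY500307 library. Depth limits Fosb, Fosl1 and Egr1, whose intervals span more than the differences seen.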
